A study of Mus musculus with 4 samples.

Results

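The ErbB receptors and their ligands were followed through 4 single-cell RNA libraries of mouse lung tumours. The 10 genes were taken by symbol from the 32285 mouse genes of the count tables: the receptors Egfr, Erbb2, Erbb3 and Erbb4, and the ligands Areg, Ereg, Hbegf, Tgfa, Btc and Nrg1. All 10 were found in all 4 libraries. Every mouse carried floxed Hnf4a, frt-flanked p53 and, at Rosa26, a CreERT2 that Flp activates, so the vehicle group carried these alleles too. Tumours were started with adenoviral FlpO under the surfactant protein C promoter. Tamoxifen or vehicle was injected 10 weeks after the virus and single cells were collected 2 weeks later. The vehicle is called Ethanol in the treatment label and corn oil in the protocol. Part of each tumour suspension was kept as it was, and from another part the cells that bound CD45 or CD31 beads were removed; these proteins mark leukocytes and endothelium. Each of the 4 groups is 1 library. Where 4 values are given, they stand in the order vehicle before and after depletion, then tamoxifen before and after it, and where 2 are given, vehicle comes first. How many mice or tumours entered a suspension is not given in the labels used here.

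The ErbB family consists of receptor tyrosine kinases that pair with each other at the cell surface. EGFR binds amphiregulin (Areg), epiregulin (Ereg), heparin-binding EGF-like growth factor (Hbegf), transforming growth factor alpha (Tgfa) and betacellulin (Btc), while ERBB3 and ERBB4 bind neuregulin 1 (Nrg1) and ERBB4 also binds several EGFR ligands. ERBB2 has no known soluble ligand and serves as a partner, and ERBB3 has little kinase activity of its own. The ligands are made as membrane-anchored precursors and are released by proteases, and in lung epithelium the pathway is known for its part in growth and repair.

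Filtering left 7088, 6917, 6105 and 7355 cells. The median cell held 9311, 17702, 9885 and 16486 unique molecular identifiers (UMIs, counted transcript tags). Libraries shared from 9 to 17 cell barcodes. Cells were clustered without the 10 genes and without the other pathway genes described below, and clusters were named by marker genes, so that names end in "-like". Epithelial-like cells numbered 1080, 6521, 1085 and 7086. Among them was an unnamed group led by immune genes (subcluster 10 below), with 147, 114, 95 and 51 cells. Endothelial-like cells numbered 155, 166, 155 and 123, so they were still present after depletion. Hnf4a, the gene that tamoxifen was meant to delete, stood at 57.0 and 55.0 CPM (the gene's UMIs per 1000000 UMIs of the cell class) in epithelial-like cells given vehicle. Under the tamoxifen label it stood at 87.1 and 82.8 CPM. The counts thus show no loss of Hnf4a transcript tags. A 3′ tag that lies outside the floxed part would not check a deletion, so the counts cannot decide whether the label is right. Directions are therefore given for the libraries labelled tamoxifen, not for loss of Hnf4a. Since each group is a single library, differences have no replicate check, and no test was made. The 95% intervals cover counting error only, and cells of 1 library are not replicates. Levels come from 3′ tags, not per length, so each gene is compared only with itself.

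Ereg, Areg and Btc are neighbours on chromosome 5 (GRCm38). Ereg lies at chr5:91074622-91093646 and Areg at chr5:91139599-91148432, both on the plus strand and 46.0 kb apart, and Btc lies at chr5:91357261-91402994 on the minus strand, 209 kb beyond Areg. The 250 bases before the gene start of Areg and of Btc are shown because these neighbours differed in where their transcripts were found, with Areg in epithelial-like, myeloid and lymphoid cells and Btc almost wholly in epithelial-like cells. The sequences are RefSeq's on GRCm38.p6, chr5:91139349-91139598 (plus strand) and chr5:91402995-91403244 (minus strand), written 5′ to 3′ toward the gene. Capitals mark a cyclic AMP response element (TGACGTCA, which reads the same on both strands).
Areg: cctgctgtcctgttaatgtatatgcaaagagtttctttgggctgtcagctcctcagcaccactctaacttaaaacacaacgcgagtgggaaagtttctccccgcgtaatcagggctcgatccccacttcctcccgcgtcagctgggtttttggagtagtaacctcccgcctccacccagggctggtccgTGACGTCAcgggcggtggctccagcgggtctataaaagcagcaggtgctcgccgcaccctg
Btc: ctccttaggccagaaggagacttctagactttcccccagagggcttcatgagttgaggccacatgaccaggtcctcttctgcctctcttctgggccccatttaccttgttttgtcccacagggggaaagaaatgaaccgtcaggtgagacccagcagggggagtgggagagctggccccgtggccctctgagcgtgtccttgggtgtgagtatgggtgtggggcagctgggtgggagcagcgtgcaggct
The element in the Areg sequence begins 61 bases before the gene start. It is present in 508 of 32851 mouse promoters of the same length (1.55%). The Btc window does not hold these letters. Neither do the windows of Egfr, Erbb2, Erbb4 and Tgfa, the other members among the 6 of 10 with a promoter in the table. An AP-1 site (TGANTCA, both strands) was in none of the 6, against 6.75% of all promoters.

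Among receptors, Erbb2 and Erbb3 were found mainly in epithelial-like cells, while Egfr was highest in fibroblast-like cells. The order over cell classes was read in both libraries taken before depletion, over 11 classes with at least 50 cells in each. Erbb3, the kinase-impaired neuregulin receptor, stood at 91.0 (exact Poisson 95% interval 87.8 to 94.4), 83.0 (81.4 to 84.5), 83.8 (80.8 to 86.9) and 83.2 (81.7 to 84.7) CPM in epithelial-like cells of the 4 libraries. These levels were close to each other and lay above every other class. The class next in order was the plasmacytoid dendritic cell-like class, with 28.6 CPM (17.7 to 43.7) in the vehicle and 21.2 CPM (12.9 to 32.7) in the tamoxifen library, from 16 of 65 and 15 of 69 cells. Epithelial-like cells held 94.0% of all Erbb3 UMIs before depletion in the vehicle library and 91.3% in the tamoxifen library, while they were 15.2% and 17.8% of cells.

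Erbb2, the ligandless partner receptor, stood at 28.2, 21.6, 29.2 and 26.1 CPM in epithelial-like cells, which held 88.5% and 91.6% of its UMIs before depletion. Fibroblast-like cells (16.5 and 12 CPM before depletion) and endothelial-like cells (12.3 and 11.5 CPM) came next, and their intervals overlapped. Erbb4, the other neuregulin receptor, had 220 UMIs in the 4 libraries together, the fewest of the 10 genes. It was at 0.249, 0.376, 0.430 and 0.336 CPM in epithelial-like cells. In the vehicle library before depletion, 38 of its 76 UMIs lay in mural-like cells, and none of these 38 came from the 31 cells of the larger mural-like cluster (Rgs5, Higd1b), which leaves 2 cells. The mural-like cells of the tamoxifen library before depletion held 0 Erbb4 UMIs. After depletion the order turned, with 0 Erbb4 UMIs in 48 vehicle and 5 in 38 tamoxifen mural-like cells.

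Egfr, the receptor for 5 of the 6 ligands, was at 139 (123 to 156), 110.0 (91.8 to 131), 55.5 (42.3 to 71.4) and 87.6 (67.7 to 111) CPM in fibroblast-like cells, which numbered 80, 88, 52 and 63. In the vehicle library before depletion 63 of 269 UMIs came from 1 cell. The vehicle level was the higher in both pairs, but the intervals overlapped in the pair after depletion. Plasmacytoid dendritic cell-like cells came next, at 62.6 CPM (45.8 to 83.4) in the vehicle and 36.0 CPM (24.9 to 50.3) in the tamoxifen library, with a UMI in 20 of 65 and 21 of 69 cells. Mural-like cells, of which there were 33 and 27, stood at 58.3 and 24.6 CPM before depletion and at 25 and 52.6 CPM after it, so their order turned. Epithelial-like cells as a whole stood at 5.89, 2.71, 3.04 and 2.80 CPM.

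The plasmacytoid dendritic cell-like cluster was checked for other cell types. Its defining genes Siglech and Bst2 stood at 2064 and 3246 CPM in the vehicle and 1770.3 and 3190.2 CPM in the tamoxifen library. The 7 fibroblast markers together reached 5.44 CPM in the vehicle library, with Dcn, Pdgfra, Mfap4 and Lum at 0, against 12332 CPM in fibroblast-like cells. In the tamoxifen library they reached 43.4 CPM, all of it Dcn, with the other 6 at 0. The 8 epithelial markers reached 1330.1 and 8450.3 CPM. Egfr was lower in epithelial-like cells as a whole than in this cluster in both libraries. One epithelial subcluster described below, number 13, stood higher, at 112 and 212 CPM from 16 and 4 cells. The part of epithelial or fibroblast RNA in the Egfr and Erbb3 levels of the plasmacytoid dendritic cell-like cluster was not tested. After thinning every cell to 2000 UMIs, 10.9% (exact Clopper-Pearson interval 4.51 to 21.2) and 5.80% (1.60 to 14.2) of its cells had an Egfr UMI, against 30.8% and 30.4% before thinning. In B cell-like cells, with a median of 4906 and 4547 UMIs per cell against 11522 and 12632, the thinned share was 0 of 414 and 0 of 190 cells, which allows up to 0.725% and 1.58%.

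Tgfa and Btc were epithelial ligands in these libraries. Tgfa stood at 27.3, 20.8, 29.7 and 27.3 CPM in epithelial-like cells, which held 92.0% and 91.8% of its UMIs before depletion. Endothelial-like cells came next, with 14.5 CPM (10.0 to 20.4) and 9.88 CPM (5.85 to 15.6). Btc stood at 26.4, 27.7, 30 and 33.3 CPM in epithelial-like cells, which held 95.6% and 96.9% of its UMIs. No other class with at least 15 cells reached 10 CPM of Btc in either library before depletion.

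Areg was highest in epithelial-like cells among the 11 classes and was also present in myeloid and lymphoid cells. Its epithelial-like levels were 754, 1098, 806 and 891 CPM, and these cells held 77.6% and 86.2% of its UMIs before depletion. Monocyte or macrophage-like cells were at 134 CPM (129.7 to 139) and 97.1 CPM (92.4 to 102) in the vehicle and tamoxifen libraries, T cell-like cells at 117 and 107 CPM, and alveolar macrophage-like cells at 81.9 and 58.6 CPM. NK cell-like cells, the lowest lymphoid class, stood at 11.5 and 5.41 CPM. After thinning, 8.57% and 8.90% of T cell-like cells and 4.10% and 0% of NK cell-like cells (0 of 75, which allows up to 4.0%) had an Areg UMI, at medians of 5746 and 5965 against 4312 and 3848 UMIs per cell. Without thinning these shares were 14.9% and 15.8% against 5.22% and 2.20%.

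Within T cell-like cells, Areg was at 139 CPM (129 to 149) and 131 CPM (119 to 144) in the cluster led by Lef1, Skap1 and Camk4. It was lower in the cluster led by Cd8a, at 10.1 CPM (4.08 to 20.9) and 16.7 CPM (8.34 to 29.9). The intervals of these clusters did not overlap in either library. Smaller T cell-like clusters, led by Cd163l1 and Trdc (49 and 40 cells) and by Hist1h1b (50 and 23 cells), are not compared here. Type 2 innate lymphoid-like cells, led by Il1rl1, the interleukin 33 receptor, and Il13, had 841 CPM of Areg (769.9 to 917) in the vehicle library, from 29 of 51 cells, with 120 of 517 UMIs in 1 cell. The tamoxifen library held 9 such cells, too few for a level. Among monocyte or macrophage-like clusters Areg was highest in the one led by Ccl17 and Mgl2, at 175 and 138 CPM, and lower in those led by Ms4a7 and C1qc (28.1 and 20.3 CPM) and by Adgre4 and F13a1 (28.2 and 16.1 CPM).

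Ereg and Hbegf were shared between epithelial-like and stromal cells. Ereg stood at 138, 151, 223 and 192 CPM in epithelial-like cells and at 302 (278 to 328), 379 (344 to 416), 663 (615 to 713) and 362 (321 to 408) CPM in fibroblast-like cells. Fibroblast-like cells were the higher class in each library, and before depletion their UMIs came from 40 of 80 and 31 of 52 cells. Because they were few, they held 10.3% and 7.94% of Ereg UMIs, against 77.8% and 86.0% in epithelial-like cells. Mural-like cells had 171, 169, 13.4 and 8.77 CPM of Ereg, from 33, 48, 27 and 38 cells, and the intervals of the vehicle libraries (143 to 203 and 134 to 209.6) lay above those of the tamoxifen libraries (4.93 to 29.2 and 1.81 to 25.6). The UMIs came from 8, 11, 4 and 3 cells, and without the highest cell of each library the levels were 93.0, 115, 9.57 and 6.33 CPM. Markers of other cells also differed. Before depletion Pdgfra was at 131 and 29.1 CPM, Epcam at 79.5 and 0 CPM and Ptprc at 163 and 24.6 CPM in these cells, and the 7 fibroblast markers summed to 4631 CPM (none at 0) and 3470.0 CPM (Lum at 0). After depletion, Pdgfra was at 14.6 and 11.7 CPM, Epcam at 12.5 and 14.6 CPM and Ptprc at 0 in both, and the fibroblast markers summed to 4965 CPM (none at 0) and 6403 CPM (Lum at 0). The 8 epithelial markers summed to 355, 1661, 264 and 1436 CPM, with Nkx2-1 at 0 in the vehicle library after depletion and Epcam at 0 in the tamoxifen library before it. The part of these markers in the Ereg difference before depletion was not tested.

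Hbegf stood at 255, 325, 295 and 365 CPM in epithelial-like cells and at 270.3, 330.0, 220.0 and 319 CPM in fibroblast-like cells. Which of these classes was higher differed between libraries. Within fibroblast-like cells before depletion, Hbegf lay in the cluster led by Mgp, Col1a1 and Col6a3 (642 and 534 CPM, 22 and 17 cells) more than in the one led by Eln and Mfap5 (19.6 and 50.3 CPM, 54 and 32 cells). Neutrophil-like cells had 151 CPM (136 to 167) and 238 CPM (216 to 261) of Hbegf. Nearly all of it was in the cluster led by Acod1, G0s2 and Mmp9 (196 and 295 CPM) and little in the one led by Retnlg (30.8 and 31.7 CPM). Endothelial-like cells stood at 114 and 67.0 CPM.

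**Figure D1:**
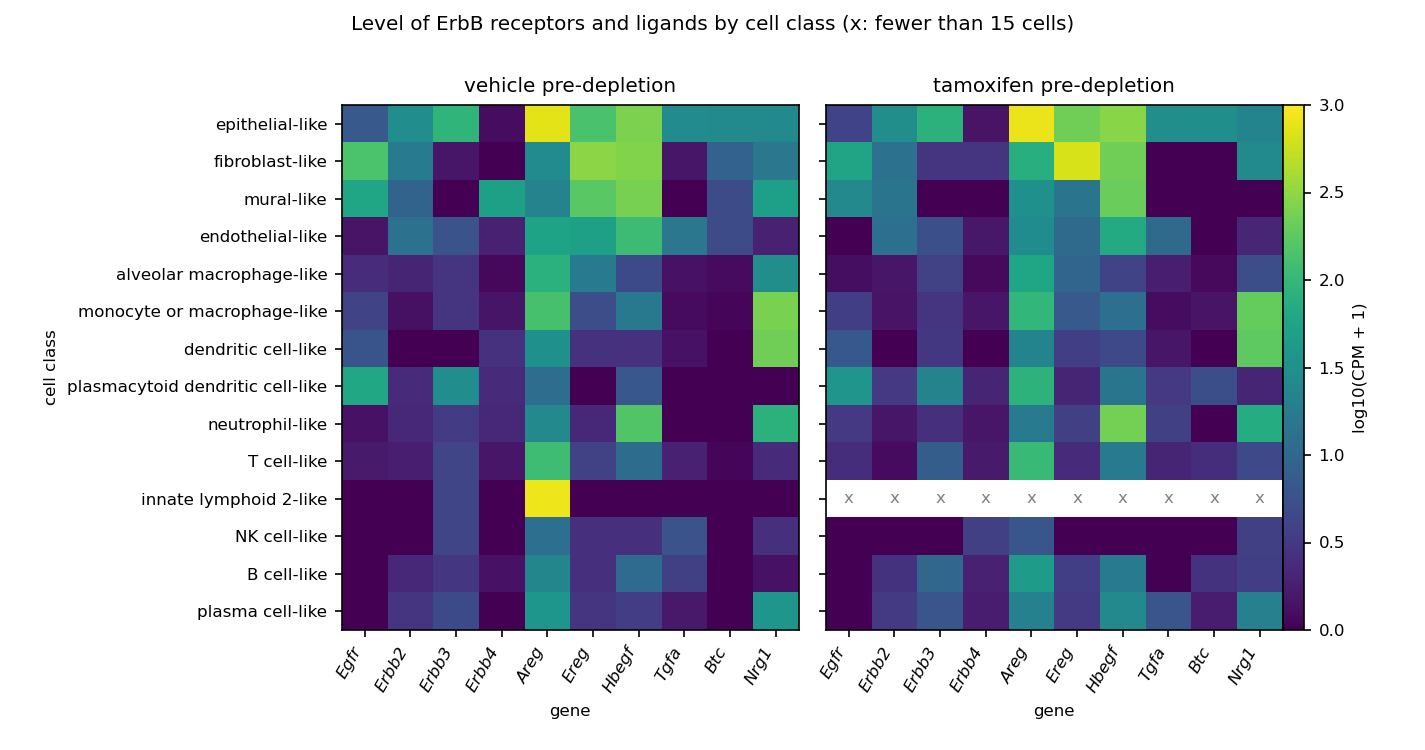
Level of each gene (columns) in each cell class (rows) as log10 of CPM plus 1, in the vehicle library (left) and the tamoxifen library (right) before depletion. Erbb3, Tgfa and Btc are brightest in the epithelial-like row, with Tgfa also present in the endothelial-like row (14.5 and 9.88 CPM). Egfr is brightest in the fibroblast-like row (139 and 55.5 CPM) and Nrg1 in the monocyte or macrophage-like and dendritic cell-like rows. The innate lymphoid class is crossed out where it had 9 cells.

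Nrg1, the neuregulin ligand, had a myeloid source. Monocyte or macrophage-like cells stood at 250.4 CPM (244 to 257) and 192 CPM (186 to 199), dendritic cell-like cells at 224 CPM (206 to 244) and 179.8 CPM (161 to 199.8), and neutrophil-like cells at 83.7 and 70.7 CPM. Epithelial-like cells had 26.5, 26.8, 21.5 and 27.3 CPM. Monocyte or macrophage-like cells held 73.6% and 68.2% of Nrg1 UMIs while they were 20.4% and 15% of cells, and epithelial-like cells held 9.99% and 16.6%. The EGFR ligands and the neuregulin thus differed in the class that held most of their UMIs.

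Myeloid clusters differed widely in Nrg1. The monocyte or macrophage-like cluster led by Adgre4 and F13a1 had 665 CPM (623 to 709) and 559 CPM (517 to 603), with a UMI in 69 of 146 and 61 of 115 cells. The cluster led by Ccl17 and Mgl2 had 291 and 217 CPM, and the one led by Ms4a7 and C1qc 9.98 CPM (7.52 to 13) and 32.9 CPM (27.7 to 38.8). All 3 clusters kept this order in both libraries, with no overlap of intervals. Among dendritic cell-like cells, the cluster led by Ccl22, Fscn1 and Ccr7, which mark migratory dendritic cells, had 371 and 391 CPM. The cluster led by Xcr1, the marker of cross-presenting dendritic cells, had 0 UMIs in 42 cells and 1 UMI in 50 cells.

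**Figure D2:**
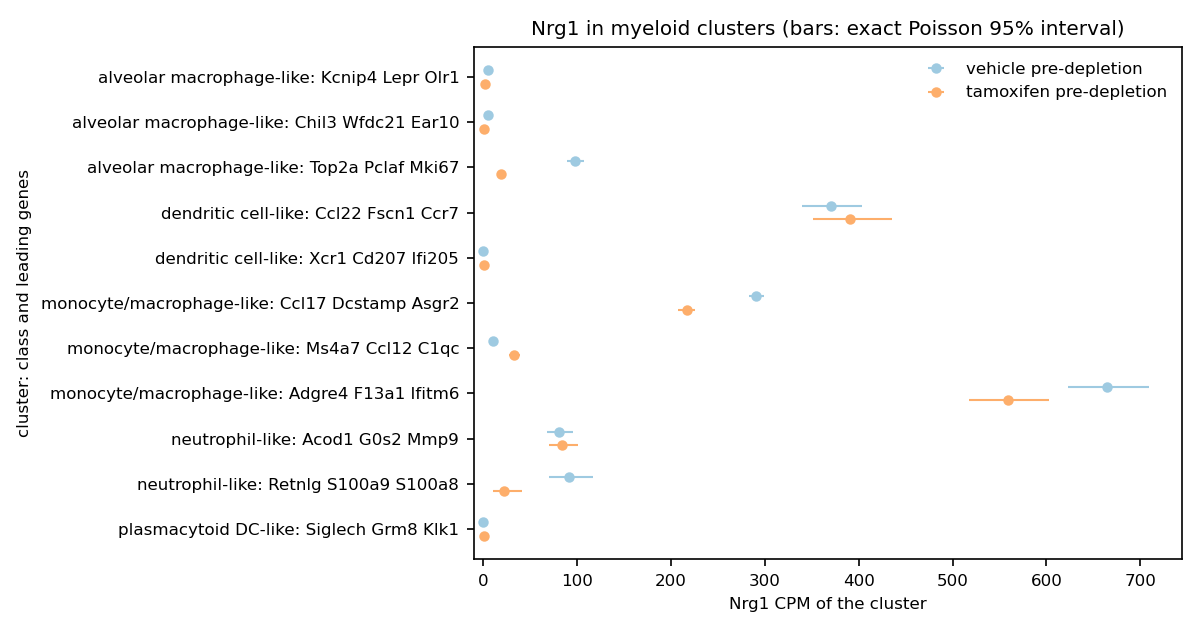
Nrg1 level (horizontal axis, CPM) in each myeloid cluster, named by class and leading genes, in the vehicle and tamoxifen libraries before depletion. Bars are exact Poisson 95% intervals. The Adgre4 cluster is highest (665 and 559 CPM), the Ccr7 cluster follows in the tamoxifen and in the vehicle library (391 and 371 CPM), and the Xcr1 cluster lies at or near 0.

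**Figure D3:**
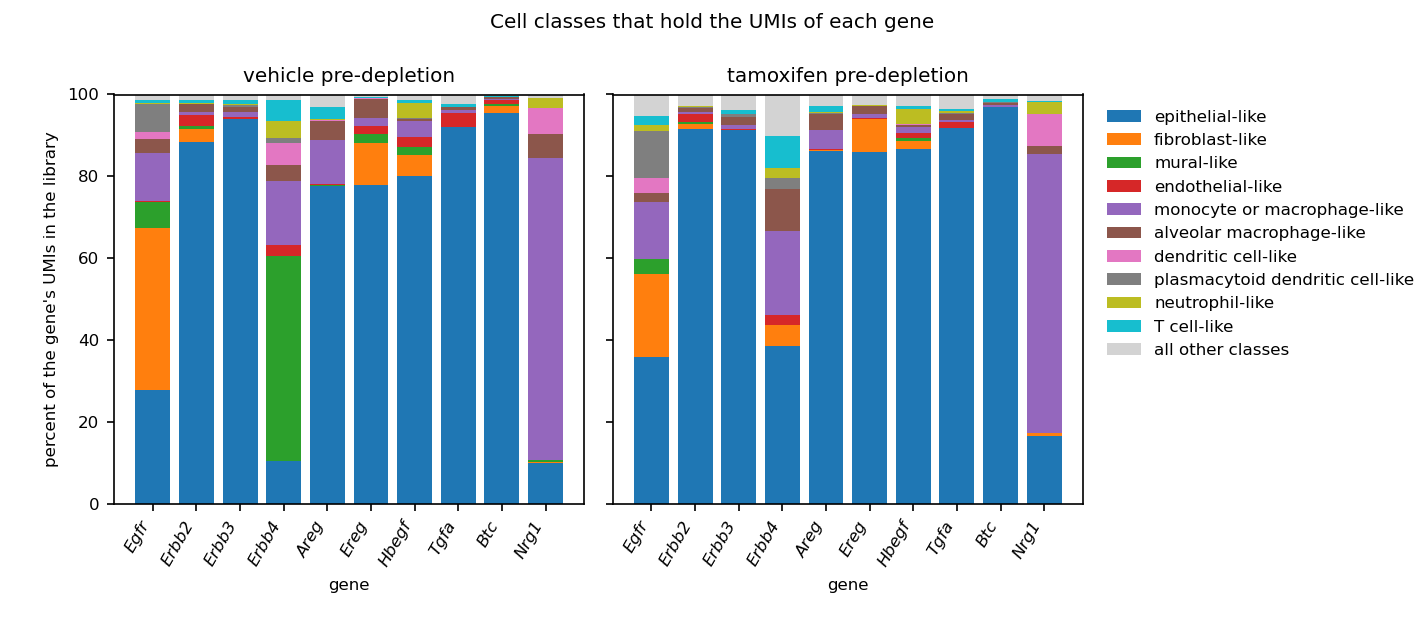
Percent of each gene's UMIs (vertical axis) held by each cell class (colours) in the vehicle and tamoxifen libraries before depletion. Epithelial-like cells hold from 77.6% to 96.9% for Erbb2, Erbb3, Areg, Ereg, Hbegf, Tgfa and Btc, whereas monocyte or macrophage-like cells hold 73.6% and 68.2% for Nrg1, and no class holds 50% of Egfr.

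Epithelial-like cells were divided into 14 subclusters, and levels were read where a subcluster had at least 50 cells in a library. Egfr was concentrated in subcluster 13, a small transitional-like group led by Npy, Inhba, Fst and Vim, with 16, 105, 4 and 87 cells. Its Egfr levels were 112 (91.0 to 136), 55.2 (47.1 to 64.3), 212 (157 to 280.3) and 59.1 (50.4 to 68.8) CPM, the levels before depletion resting on 16 and 4 cells. In the tamoxifen library before depletion 1 of the 4 cells held 42 of the 49 UMIs, and without it the level was 56.8 CPM (22.8 to 117). No other subcluster with at least 50 cells passed 10.9 CPM in any library. Subcluster 13 was 1.48%, 1.61%, 0.369% and 1.23% of epithelial-like cells and held 53.4%, 44.8%, 46.2% and 44.3% of their Egfr UMIs. Without the highest cell of each library these shares were 48.5%, 43.3%, 10.9% and 42.9%, so the share in the tamoxifen library before depletion rested on 1 cell.

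In the libraries after depletion 66 of the 105 and 54 of the 87 cells of subcluster 13 had an Egfr UMI (62.9% and 62.1%). The highest cell held 10 of 165 and 9 of 166 UMIs. Thinned to 2000 UMIs the shares were 5.71% (2.13 to 12) and 12.6% (6.48 to 21.5), against 0.472% and 0.701% in subcluster 2 and 0.964% and 1.18% in subcluster 1. The median cell of subcluster 13 held 26591 and 28084 UMIs. The epithelial gene Epcam was at 1555 and 956 CPM there, and the pan-leukocyte gene Ptprc at 0 in both. The 7 fibroblast markers together reached 12.7 CPM (Pdgfra, Mfap4 and Lum at 0) and 82.5 CPM (Lum at 0), against 12332 and 11393 CPM in fibroblast-like cells of the libraries before depletion. The part of fibroblast RNA in the Egfr level of subcluster 13 was not tested.

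The same subcluster was low in Erbb3, at 37.1 and 34.5 CPM after depletion, where the other named subclusters lay between 49.1 and 115 CPM. It was the highest for Tgfa (66.2 and 80.8 CPM) and Btc (101 and 121 CPM) in those libraries. Erbb2 was also low there, at 16.4 and 17.1 CPM. It lay between 19.5 and 41.4 CPM in the other subclusters except subcluster 10, an unnamed group of shallow cells led by immune genes, which stood at 28.3, 5.78, 26.7 and 3.69 CPM.

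Areg was highest in subcluster 2 in 4 of 4 libraries. This larger transitional-like group, led by Procr, Sprr1a and F3, stood at 1784, 2132, 2049 and 1900.0 CPM and held 38.8%, 41.8%, 32.9% and 36.9% of epithelial Areg UMIs with 12.5%, 19.8%, 11.1% and 16.2% of the cells. Subcluster 1, the alveolar type 2-like group led by Lyz1, stood at 245, 404, 306 and 401 CPM. Its cells were shallower than those of subcluster 2, with medians of 16993, 11750, 20394 and 11423 against 35666, 20916, 34159 and 18188 UMIs. After thinning, 81.2%, 86.7%, 86.7% and 80.6% of subcluster 2 cells and 25.1%, 38.2%, 32.9% and 36.7% of subcluster 1 cells had an Areg UMI, so the order stayed.

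Other ligands were low in the Lyz1-led subcluster as well. Ereg was at 37.5, 26.5, 18.5 and 37.0 CPM in subcluster 1 and at 276, 242, 403 and 293 CPM in subcluster 2, which was the highest in 3 of 4 libraries. The exception was the vehicle library after depletion, where subcluster 12, an unnamed group of 59 cells led by Dcpp1 and Bpifa1, had 430.2 CPM. Btc was at 7.02, 6.67, 7.58 and 6.98 CPM in subcluster 1 against 46.7, 56.3, 67.6 and 61.7 CPM in subcluster 2. Tgfa was at 14.8, 10.6, 14.6 and 12.8 CPM against 42.0, 34.4, 54.5 and 50.1 CPM. For each of these ligands subcluster 1 lay below subcluster 2 in all 4 libraries. Hbegf was more even, at 115 to 215 CPM in subcluster 1 and 308 to 423 CPM in subcluster 2.

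Within the epithelium Nrg1 was present in most subclusters and low in the Lyz1-led one. Subcluster 2 had 93.3, 68.6, 38.6 and 38.4 CPM. Subcluster 6, an alveolar type 1-like group led by Rtkn2, Akap5 and Hopx, had 85.6 CPM in the vehicle library after depletion and 76.7 and 81.7 CPM in the tamoxifen libraries, and it was the highest in these 3. Subcluster 1 had 0.638, 1.19, 0.842 and 1.95 CPM. Subclusters 3, 4, 5 and 7 lay between 9.69 and 29.2 CPM after depletion. In the tamoxifen library after depletion the large airway secretory-like subcluster 4 held 28.7% of epithelial Nrg1 UMIs at 29.2 CPM, more than subcluster 2 (24.4%) or subcluster 6 (19%). Subcluster 6 held 143, 100 and 647 cells in the libraries named, and 18 in the vehicle library before depletion.

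**Figure D4:**
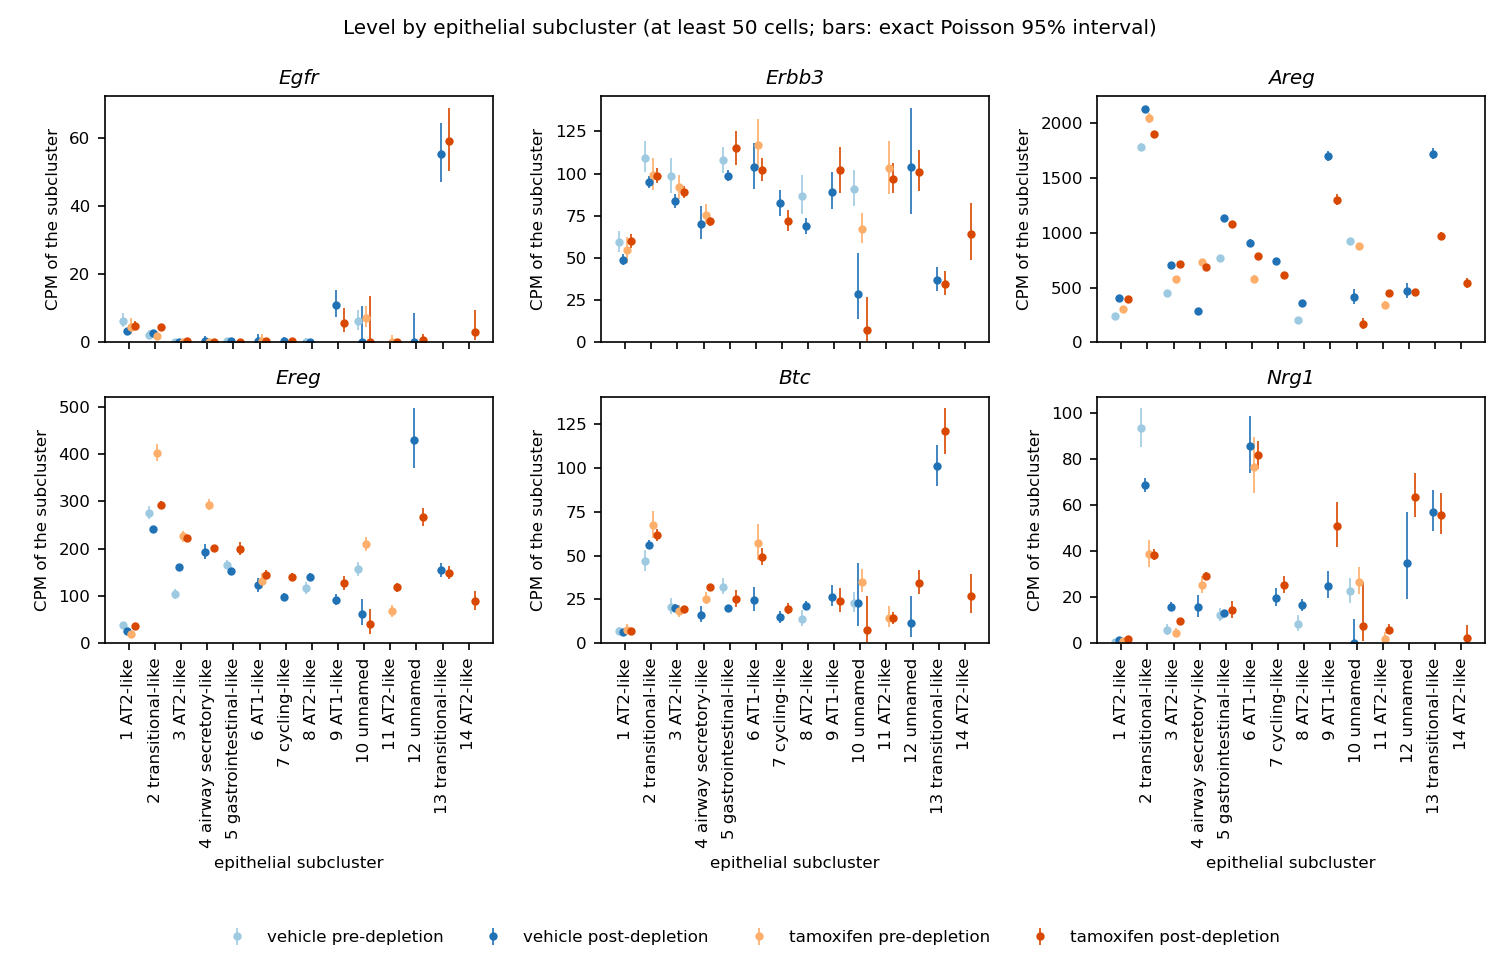
CPM (vertical axes) of Egfr, Erbb3, Areg, Ereg, Btc and Nrg1 in the epithelial subclusters with at least 50 cells, in each of the 4 libraries (colours), with exact Poisson 95% intervals. Egfr is high in subcluster 13 (55.2 and 59.1 CPM) and low elsewhere, Areg is highest in subcluster 2 in every library, and Nrg1 is near 0 in subcluster 1.

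Ligand and receptor UMIs in the same thinned epithelial-like cell were counted. Areg and Egfr fell together in 19 of 6392 cells of the vehicle library after depletion and in 23 of 7033 cells of the tamoxifen library, where independence of both shares gives 20.7 and 23.4 cells. Nrg1 and Erbb3 fell together in 44 and 55 cells, where independence gives 36.8 and 51.3. The counts were thus close to those that the single shares give. The other pairs with Egfr had from 1 to 17 cells with both in these libraries.

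None of the 10 genes was 2-fold apart between treatments in epithelial-like cells. The rule asked for 10 CPM in 1 or both libraries of every pair and a log2 ratio (tamoxifen over vehicle, pseudocount 1 CPM) of at least 1 the same way in the pair before and the pair after depletion. The pairs are portions of shared suspensions and not replicates. Egfr and Erbb4 did not reach 10 CPM, and 0 of the other 8 passed the rule, against 1.34% of 9042 genes (34 higher, or 0.376%, and 87 lower, or 0.962%). At that share, 8 genes could well hold none, so the count of 0 says little about the members. The median log2 ratio of the 8 was 0.11 before and 0.21 after depletion, beside -0.039 and 0.011 over all 9042 genes.

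Of these 8 genes, 5 were higher in the libraries labelled tamoxifen in both pairs and 0 were lower in both, where 35.0% of the 9042 genes were higher and 40.3% lower in both. For Erbb2 (-0.082 to 0.18) and Tgfa (-0.0078 to 0.25), which are among the 5, the interval before depletion included 0. Ereg had the largest ratio, with a log2 ratio of 0.69 (exact conditional binomial interval of the ratio without pseudocount, 0.64 to 0.74) before and 0.34 (0.32 to 0.37) after depletion. Areg differed in direction between the pairs, at 0.096 (0.072 to 0.12) and -0.30 (-0.31 to -0.29). Hbegf was at 0.21 and 0.17, Tgfa at 0.12 and 0.38, Btc at 0.18 and 0.26 and Erbb2 at 0.046 and 0.26. Erbb3 (-0.12 and 0.0037) and Nrg1 (-0.29 and 0.026) were near 0 after depletion. Egfr stood at -0.77 and 0.034, below the minimum level, and in the pair before depletion 42 of the 106 tamoxifen UMIs came from 1 cell.

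The same minimum level and 2-fold limit were applied to 1 pair at a time, after against before depletion. This rule was used to see how far portions of 1 suspension differed. In the vehicle pair 0 of the members passed it, against 0.647% of 9275 genes, and in the tamoxifen pair 0, against 0.579% of 9155 genes. The vehicle portions differed by a log2 ratio of 0.54 for Areg (754 to 1098 CPM), which is larger than either of its ratios between treatments. They differed most for Egfr, which was below the minimum level, at -0.89 (5.89 to 2.71 CPM). Between treatments before depletion Egfr was at -0.77. The tamoxifen portions differed by 0.33 for Nrg1 and by -0.21 for Ereg.

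**Figure D5:**
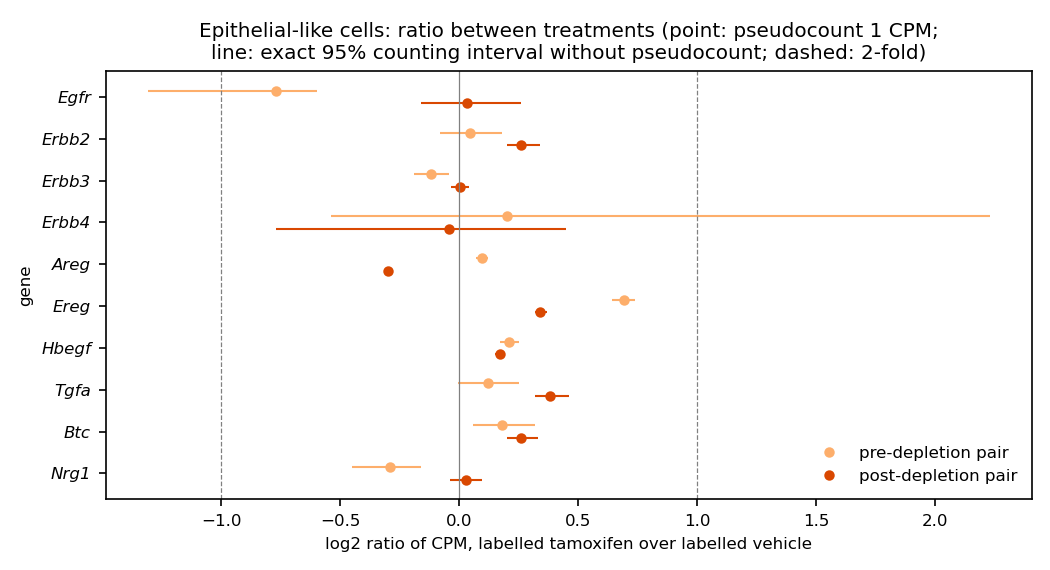
Log2 ratio of CPM, labelled tamoxifen over labelled vehicle (horizontal axis), for each gene in epithelial-like cells, in the pair before and the pair after depletion. Points include the pseudocount of 1 CPM, lines are exact 95% counting intervals without it, and dashed lines mark 2-fold. All points lie between the dashed lines, with Ereg at 0.69 and 0.34 and Egfr at -0.77 and 0.034.

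In the 7 other classes with at least 100 cells in both libraries before depletion, 20 of 70 gene and class ratios reached 10 CPM, and 2 of these were at least 2-fold apart, both lower in the library labelled tamoxifen. Over all genes the share that was 2-fold apart was 0.638% in monocyte or macrophage-like, 0.827% in T cell-like, 1.01% in alveolar macrophage-like, 3.05% in dendritic cell-like, 3.88% in neutrophil-like and 3.98% in endothelial-like cells, and 5.95% in B cells. Nrg1 in alveolar macrophage-like cells was at 29.1 CPM (26.6 to 31.8) in the vehicle and 4.24 CPM (3.41 to 5.22) in the tamoxifen library. The log2 ratio was -2.52 (-3.12 to -2.45). In this class 0.887% of 8227 genes were at least 2-fold lower, and the share lower by as much as Nrg1 was not computed. Most Nrg1 UMIs of this class lay in a cluster of cycling cells led by Top2a and Mki67. It held 441 of 503 and 64 of 89 UMIs, from 32 of 210 and 13 of 182 cells. Without this cluster the levels were 4.86 and 1.42 CPM, still lower in the tamoxifen library, with a log2 ratio of -1.27 (-2.50 to -1.08). The minimum of 10 CPM was then not reached. The 8 monocyte or macrophage markers, none of them at 0, reached 9436 and 8707 CPM in the cycling cluster, against 365 and 423 CPM in the largest alveolar macrophage-like cluster. The 7 alveolar macrophage markers reached 2986 and 3735 CPM, against 9047 and 7683 CPM. The markers of the cycling cluster thus went with its class name only in part. Summed levels do not show whether single cells held both marker sets or the cluster mixed cells. The part of this makeup in the Nrg1 difference was not tested.

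Ereg in endothelial-like cells was at 50.2 CPM (41.4 to 60.3) and 9.88 CPM (5.85 to 15.6), a log2 ratio of -2.24 (-3.15 to -1.62). In this class 2.78% of 9413 genes were at least 2-fold lower, and the share lower by as much as Ereg was not computed. All 114 vehicle UMIs came from 3 of 155 cells and 88 of them from 1 cell, and 12 of the 18 tamoxifen UMIs came from 1 cell. When only cells with at least 1000 genes were kept, the ratio turned to 2.77. In the libraries after depletion the levels were 3.96 and 7.80 CPM, the tamoxifen library being the higher. In monocyte or macrophage-like cells Nrg1 (250.4 and 192 CPM, log2 ratio -0.38, -0.44 to -0.32) and Areg (134 and 97.1 CPM, -0.46, -0.55 to -0.38) did not pass the rule. Hbegf in neutrophil-like cells was 1.57 times as high in the tamoxifen library (151 and 238 CPM, log2 ratio 0.65, 0.45 to 0.86), also under 2-fold.

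Epithelial subclusters with at least 100 cells in each library of a pair numbered 3 before and 8 after depletion. With 10 genes looked at in each, 4 gene and subcluster ratios passed 2-fold, each in 1 pair. The shares over all genes stand beside this count, and the 4 are not read as a trait of the members. Of all genes, 0.346%, 3.69% and 3.25% were 2-fold apart in subclusters 1, 2 and 3 before depletion, and 0.269%, 2.08%, 1.06%, 5.48%, 3.05%, 6.69%, 1.94% and 1.36% in subclusters 1 to 7 and 9 after it. Nrg1 in subcluster 2 was at 93.3 and 38.6 CPM before depletion (log2 ratio -1.25) and at 68.6 and 38.4 CPM after it (-0.82). Ereg in subcluster 3, an alveolar type 2-like group led by Bex2, was at 104 and 226 CPM before depletion (1.11) and at 161 and 222 CPM after it (0.46). Both kept their direction in the other pair without passing 2-fold. Ereg in subcluster 1 fell just short of the rule before depletion, at 37.5 and 18.5 CPM (-0.98). Its direction turned after depletion, at 26.5 and 37.0 CPM (0.47). Areg in subcluster 4, an airway secretory-like group led by Dlk1 and Bpifa1, was at 289 and 688 CPM after depletion (1.25), from 117 and 1475 cells. Nrg1 in subcluster 9, an alveolar type 1-like group led by Cyp2b10, was at 24.9 and 50.9 CPM (1.0), and without the highest cell of each library the ratio was 0.88.

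The makeup of the epithelial-like class differed between treatments. Subcluster 4 held 12, 117, 186 and 1475 cells, and subcluster 5, a gastrointestinal-like group led by Ttr and Agr2, held 120, 1182, 16 and 117. Subcluster 4 was thus mostly of the tamoxifen and subcluster 5 mostly of the vehicle libraries. A level over the whole class mixes these states, and the part of this mix in the member ratios was not tested. A lower level in a summed class can also be fewer cells with the transcript or less of it per cell.

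None of the other genes of the pathway that reached 10 CPM passed the 2-fold rule over both pairs in epithelial-like cells. Of all 9042 genes considered, 1.34% passed it. At that share, lists this short could well hold none, so this says little about the pathway. Of the 5 other ligands (Egf, Epgn, Nrg2, Nrg3 and Nrg4) 0 reached 10 CPM. Epgn, which encodes epigen, was at 0.841, 1.70, 3.79 and 4.95 CPM, more than 2-fold apart in both pairs (log2 ratios 1.38 and 1.14, the tamoxifen libraries being higher) but below the minimum level. Of 7 genes of ligand shedding 6 were considered and 0 passed. The sheddase Adam17 stood at 68.4, 72.3, 64.4 and 67.6 CPM, and the list's median log2 ratios were -0.0090 and 0.18. Of 11 adaptors, such as Grb2, all were considered and 0 passed (medians -0.12 and 0.048). Of 8 negative regulators, such as the feedback inhibitor Errfi1 (640.4, 466, 625 and 545 CPM), 7 were considered and 0 passed (-0.035 and 0.057). Of 4 surface partners 0 passed (-0.080 and -0.011), with Cd44, the hyaluronan receptor, at 250.4, 188, 322 and 308 CPM. The shedding median after depletion was 0.18 where that of all genes was 0.011, and the other medians were between -0.12 and 0.057.

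For each gene but Erbb4, the 3 genes with the most similar pattern were sought among 13410 genes by Pearson's r of log2(CPM + 1) over 22 points (11 classes in 2 libraries). The points share libraries and depth, so r is a description. Egfr was most like Notch3 (0.905), Gria3 (0.883) and Gm13269 (0.880), and Nrg1 was most like Pak1 (0.873), Ube2f (0.872) and Slc16a14 (0.857). Among the receptors of epithelial-like cells, Erbb2 was most like Gm13056 (0.971), Efna4 (0.960) and Il17rc (0.960), and Erbb3 like Gm35696 (0.914), Slc26a9 (0.903) and Pak6 (0.903). Areg was most like Fam162a (0.904), Mboat1 (0.848) and Gde1 (0.843). Ereg was most like Pomgnt2 (0.969), Scarf2 (0.937) and Rab34 (0.931), and Hbegf like Mtus1 (0.937), Gm26887 (0.901) and Egr1 (0.895). Tgfa was most like Lurap1l (0.917), Gm36283 (0.915) and Klk13 (0.914), and Btc like Ano1 (0.941), Pard6b (0.924) and Rab3b (0.906). None of the 10 genes was among the 3 most similar of another.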

How the data were processed

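UMI counts per gene and cell were deposited by the authors without normalization, written by Cell Ranger 7.0.1 per the file headers. The submitters' processing notes name Cell Ranger 7.2.0 and mm10. Whether intronic reads and strand were used is not given in the sources used here. Totals were 104147479, 144994771, 92644997 and 141742060 UMIs. Of the feature identifiers, 32158 of 32289 matched GENCODE M21, the source of gene coordinates.

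Cells under 200 genes or over 20% mitochondrial UMIs were left out. Scrublet's automatic threshold called 1 and 0 doublets after depletion and had not worked there, so cells with a score above 0.25 were removed in all libraries (122 to 216 per library). Cells were clustered with scanpy 1.11.5 (2000 variable genes, 40 components, 15 neighbours, Leiden resolution 1, epithelial subclusters 0.6). A name needed 3 markers seen in 10% of cells. Clusters of mixed stromal and lymphoid cells were divided again and subcluster 12 left unnamed after they were seen, and 147 of 27465 cells stayed unnamed. Calls of 2-fold follow a rule of size. It was tried on simulated counts with counting error only, which do not cover differences between mice, suspensions or cell mixes. Scaling by edgeR 4.0.16 (TMM) and DESeq2 1.42.0 (median of ratios) were alternatives.

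The members, markers, gene lists and rules were chosen with earlier results of these data known. All 10 members are named, with the 3 most similar genes of each that reached 10 CPM in a class. 1 further allele of the genotype is not reported here.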

Additional observations from a re-analysis of the deposited data

How the results depend on the processing

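The count of 0 members 2-fold apart between treatments in epithelial-like cells was 0 under all 12 alternatives run, among them no doublet removal, at least 1000 genes per cell, other clustering, a gate on each cell, TMM, median of ratios and removal of the immune-led subcluster (added after the data were seen). The count after against before depletion was also 0 under its alternatives. In other classes the count of 2 became 5 without doublet removal, 12 with no minimum level and 1 without the cycling cluster (added after the data were seen). Ereg in endothelial-like cells reversed to a log2 ratio of 2.77 with at least 1000 genes per cell. The cause was not tested. Within epithelial subclusters the count of 4 became 0 when a log2 ratio of 2 was asked for, and 6 at subcluster resolution 0.3, with TMM, with median of ratios and with a pseudocount of 0.1 CPM. The pathway lists gave 1 in place of 0 with no minimum level, namely Epgn. In epithelial-like cells 40 of 200 member ratios under alternatives left the counting interval and 0 reversed. Of member levels in the highest class 22 of 80 left it, and of the shares of epithelial-like cells with a UMI 76 of 80. The levels of Egfr in subcluster 13 and of Ereg in mural-like cells without the highest cell, added after the data were seen, stand beside those results. Classes under 100 cells have few UMIs per gene, which limits what can be seen there. No paired analysis was possible because each group holds 1 library.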
